A study of Mus musculus with 10 samples.

Results

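The genes described here are 38 genes of mitosis and the G2/M phase of the cell cycle, found by their symbols among the 54456 genes of the table. The rule goes by gene function and uses no measured value, but it was drawn up with earlier results of these data known. All 38 were present. RNA-seq had been run on mouse embryonic stem cells of the strain C57BL/6J, in a study of SVA retrotransposons in X-linked dystonia parkinsonism, a movement disorder linked to an SVA insertion in the gene TAF1. Of the 10 samples of the series, 7 stem cell libraries were used. They were 1 library of wild-type MK6 cells, and 2 libraries from each of 3 converted lines called conv-dSVA_D, conv-dSVA_F and conv-dSVA_F&D. All 3 converted lines carried a loxP site in Taf1 (loxP[Taf1_i24]), the insert LPSwapinRed_pUC19[Taf1_3_4] and a humanized, partly mouse-adapted TAF1 allele. They had also received pSpCas9, pSpCas9GFP and the Cre plasmid pCAGiCre. The allele of conv-dSVA_F was marked SVAdel, that of conv-dSVA_D was marked dSVA2, and that of conv-dSVA_F&D bore both marks. Every line was grown on gelatin in serum medium with LIF, CHIR99021 and PD0325901. Each genotype is represented by 1 named line, with no clone given, so effects of a genotype and of its line cannot be told apart. The labels do not say that the 2 libraries of a line came from separate cultures, so p-values measure the spread between these libraries only. Striatal samples and the sample labelled preconv-XDP were not analysed here.

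Entry into mitosis depends on the kinase CDK1 bound to A and B cyclins, and the transcripts of this machinery build up in G2 and fall after division. At the kinetochore, the protein platform on each centromere, the spindle assembly checkpoint holds back the anaphase-promoting complex (APC/C) until every chromosome is attached to the spindle. Embryonic stem cells divide quickly with short gap phases and express these genes at high levels.

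Recovered read totals lay between 16588467 for conv-dSVA_F&D replicate 2 and 26562418 for conv-dSVA_D replicate 2. Taf1, the edited gene, stood at 2898 normalized counts (each gene's reads over the size factor of its library) in the wild type and between 362 and 1116 in the 6 converted libraries. The build was mm10 and the converted lines carry a humanized allele, so reads of human sequence may be missing from these values. Their part in the difference was not tested. All 8 stem cell markers passed the filter on low values, and their summed level was 117588 to 148866. Single markers were less even than the sum. Nanog was lower in conv-dSVA_F&D (19514 and 16246) than in conv-dSVA_D (28144 and 27769), by -0.65 on the log2 scale (limma adjusted p = 0.0282). All 6 converted libraries lay above the wild type in 2 of the 8 (Utf1 and Esrrb) and below it in 4, beside 18.8% and 19.0% of tested genes. Summed levels of 6 fibroblast or feeder markers were 210 in the wild type and 39.4 to 87.8 in the converted libraries. For 6 primitive endoderm markers they were 102 to 341, and for 6 neural or mesoderm markers 873 to 2013. Of the fibroblast or feeder markers, Col1a1 stood at 69.8 in the wild type and 22.1 to 36.6 in the converted libraries. Col1a2 stood at 96 and 0 to 8.36, and Col3a1 at 14.2 and 0 to 0.85. Thy1 overlapped (29.5, and 5.49 to 46.8), Dcn was at 0 and 0 to 4.25, and Lum was at 0 in every library. The part of other cells in the differences between lines was not tested.

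Every one of the 38 genes was well covered, with 212 to 34783 reads per gene and library and mean levels from 395 normalized counts (Cdc25b) to 25305 (Top2a). None was lost to the filter, a mean of at least 10 normalized counts, which left 15240 genes for testing. Per kilobase of exon the median level of the 38 genes was 692 normalized counts. The highest was Cdc20, the activator of the APC/C at the metaphase-to-anaphase transition, at 4323, and the lowest was Cdc25b, a phosphatase that activates CDK1, at 106. Reads of 11 of the genes could be shared with an annotated gene overlapping their exons, since no source used here gives the strand setting of the counting. Among them Foxm1 overlaps Tex52 and Gm44596 on its own strand, and Kif20a overlaps Cdc23 on the other.

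Levels of these genes stayed close to each other over the 7 libraries. In 23 of them the highest library was under 1.5 times the lowest, and in 15 it was 1.5 times or more. The standard deviation of the log2 level over the 7 libraries had a median of 0.167, between 0.044 for Cdc20 and 0.509 for Foxm1. Over all 15240 tested genes that median was 0.329, and over the 4311 with a mean of at least 1000 it was 0.196. The wild-type library lay within the range of the converted libraries in 26 of the 38 genes. All converted libraries lay above it in 6 genes and below it in 6, beside 18.8% and 19.0% of tested genes. Together the 38 genes took 0.726% of the reads in the wild type (95% Wilson interval 0.7225 to 0.7297) and 0.847% in conv-dSVA_D replicate 2 (0.844 to 0.8509), which were the lowest and the highest share. These intervals cover counting error only.

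**Figure D1:**
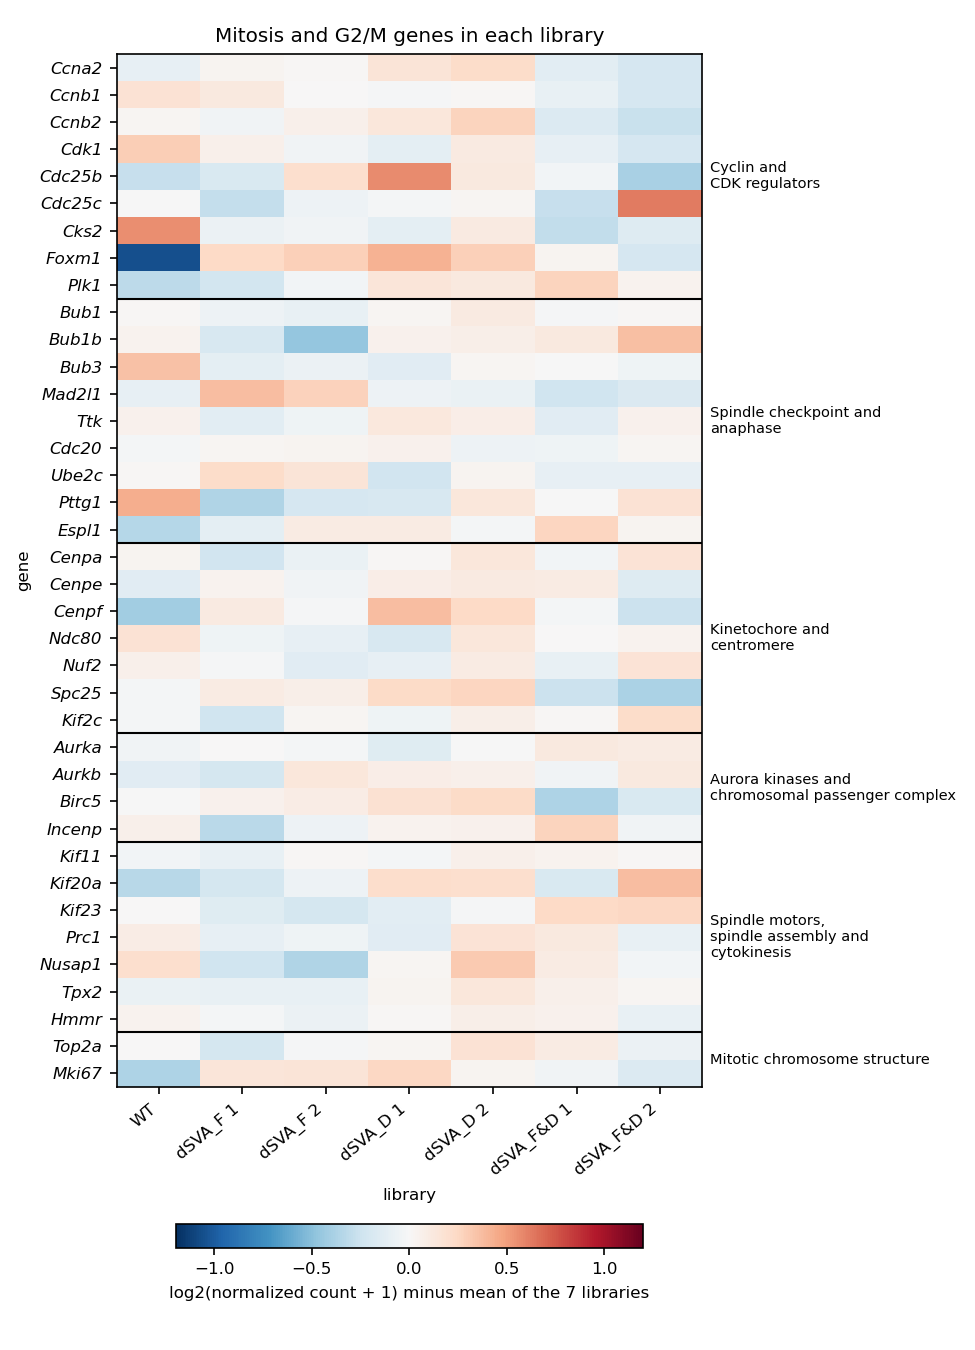
Deviation of each of the 38 genes (rows, grouped by role) from its mean over the 7 libraries (columns), as log2 of the normalized count plus 1. The darkest cell is Foxm1 in the wild type (WT), and Cdc20 is near the mean in every library.

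Replicates of a line differed by a median absolute log2 difference of 0.10 over the 38 genes in conv-dSVA_F, 0.11 for conv-dSVA_D and 0.15 for conv-dSVA_F&D. Over all tested genes, not matched to the 38 for level, the same medians were 0.23, 0.21 and 0.29. The widest gap within a line was 0.89, for Cdc25c in conv-dSVA_F&D. More of the genes had their highest value in conv-dSVA_D replicate 2 than in any other library (12 of 38, with 1 at its lowest there). The lowest values were most often in conv-dSVA_F replicate 1 (9 genes) and conv-dSVA_F&D replicate 2 (8 genes). RNA from bulk cultures was measured. For any difference, another share of cells in G2 and mitosis and another RNA level of these genes per cell cannot be told apart.

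Between the converted lines, few of the 38 genes passed the test of limma with Benjamini-Hochberg adjustment over all 15240 genes at a threshold of 0.05. In conv-dSVA_F&D against conv-dSVA_D, Spc25 and Birc5 were lower and none was higher, where 1.21% of tested genes were called lower and 1.96% higher. The median log2 difference of the 38 genes was -0.05 (all tested genes -0.00), and 36 of them differed by under 0.5 (94.7%, against 70.5% of tested genes). The tested genes were not matched to the 38 for level, so these shares do not set the 38 apart from other genes of high level. The libraries of both lines did not overlap in 3 genes higher and 13 lower in conv-dSVA_F&D, while 25.1% and 24.8% of tested genes showed such a gap upward and downward.

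Against conv-dSVA_F, the same conv-dSVA_F&D libraries were higher in Bub1b and lower in Mad2l1, and the other 36 genes did not pass. In this comparison 1.71% of tested genes were called higher and 2.21% lower. The median difference was 0.07 (all tested genes -0.01). Libraries did not overlap in 12 genes higher and 13 lower, beside 23.8% and 25.5% of tested genes. The 2 comparisons share the conv-dSVA_F&D libraries, so their values are not independent of each other.

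In conv-dSVA_F against conv-dSVA_D no gene of the 38 passed with limma or with edgeR on recovered reads, and 1 passed with DESeq2 (Nusap1, lower in conv-dSVA_F). Of the tested genes 1.08% were called higher and 0.262% lower by limma. At an unadjusted p under 0.05, 4 of the 38 differed by limma, beside 16.7% of tested genes. Values lay below conv-dSVA_D in 31 of 38 genes (81.6%, against 51% of tested genes), with a median difference of -0.12 (all tested genes -0.01). The libraries did not overlap in 21 genes lower and 2 higher in conv-dSVA_F, beside 25.6% and 26.4% of tested genes. With any 1 library left out the median stayed between -0.17 and -0.11. The moderated F test for any difference among the 3 converted lines, which called 5.58% of tested genes, called Mad2l1 and Spc25.

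The mean of the converted lines against the wild type gave 2 calls, Foxm1 higher and Cks2 lower, where 0.623% of tested genes were called higher and 0.525% lower. The median difference of the 38 genes was -0.00 (all tested genes -0.01), with 19 genes on each side of 0. All 6 converted libraries lay above the wild type in 6 genes and below it in 6, against 18.8% and 19.0% of tested genes. This comparison rests on 1 wild-type library, which was assumed to vary like the converted lines.

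**Figure D2:**
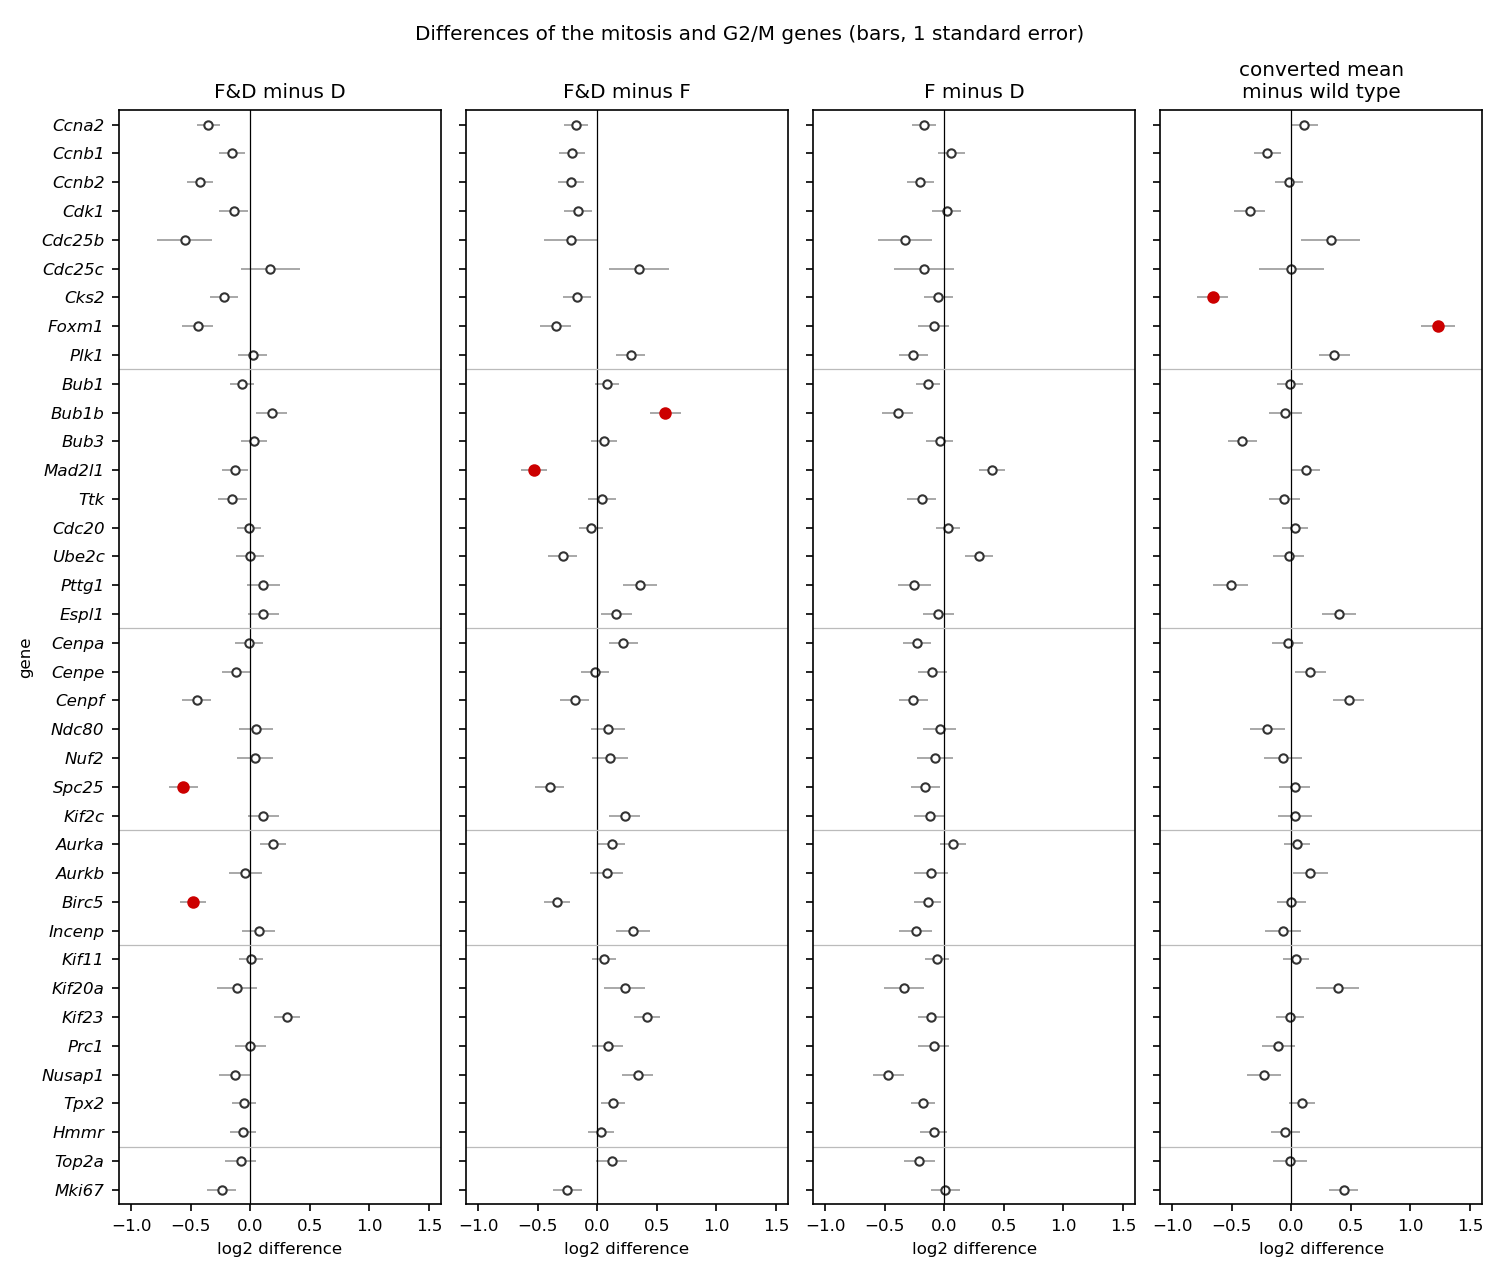
Log2 difference (horizontal axes) of each of the 38 genes (rows, grouped by role as in the map of deviations) in the 4 comparisons, with bars of 1 standard error. Filled red points are the 6 genes past an adjusted p of 0.05 in the comparison shown, and open points are not past it.

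Transcription of many G2/M genes is known to depend on short promoter elements, the cell cycle homology region (CHR), bound by the MuvB complexes, and the CCAAT box, bound by NF-Y. Promoter windows of 300 bases (RefSeq, GRCm38.p6, 250 before to 50 after the start) were found for 31 of the 38 genes, leaving Aurkb, Incenp, Ccna2, Foxm1, Kif20a, Tpx2 and Cdc25c. TTTGAA, the CHR letters, occurred on either strand in 21 of 31 genes (67.7%) and in 17.9% of all 32851 windows of the same length. CCAAT occurred on either strand in 24 of 31 (77.4%, against 37.4%), and both together in 19 of 31 (61.3%, against 6.95%). The units differ. A gene of the 31 counted if any of its windows matched (33 windows in all), while the share of all windows counts each window. Matches of the 2 motifs can share no more than 1 base. These are matches of letters, not sites shown to be bound.

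Among the 9 cyclin and CDK regulators, the largest difference of all 38 genes was that of Foxm1, the forkhead factor that activates G2/M genes. It was lowest in the wild type at 621 normalized counts. Values were 1527 and 1574 for conv-dSVA_F, 1726 and 1577 for conv-dSVA_D, and 1318 and 1124 for conv-dSVA_F&D. All 6 converted libraries lay above the wild type, and the conv-dSVA_F&D libraries lay below those of the other 2 converted lines. Group means were 1551 ± 33.1 (SD, n = 2), 1652 ± 105 (SD, n = 2) and 1221 ± 137 (SD, n = 2), which is 250%, 266% and 197% of the wild type. The log2 difference of the converted mean from the wild type was 1.23 ± 0.14 (standard error, limma adjusted p = 0.0183), higher in 6 of 6 libraries. It was 1.22 without conv-dSVA_F replicate 2 (adjusted p = 0.0535) and 1.21 without conv-dSVA_D replicate 1 (adjusted p = 0.0731). The lower values of conv-dSVA_F&D did not pass against conv-dSVA_D (-0.44 ± 0.13, adjusted p = 0.107) or conv-dSVA_F (-0.35 ± 0.13, adjusted p = 0.177).

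Foxm1 lies on chromosome 6 at chr6:128362967-128376146 (GRCm38, plus strand), and 7 other tested protein-coding genes start within 500 kb of its start. Rhno1, which encodes a protein of the DNA replication stress response, starts 56 bases away on the opposite strand. It stood at 450 normalized counts in the wild type, 870 and 922 for conv-dSVA_F, 1113 and 1207 for conv-dSVA_D, and 683 and 614 for conv-dSVA_F&D. As with Foxm1, the wild type was lowest, and conv-dSVA_F&D was the lowest of the converted lines. Its converted mean was higher than the wild type by 0.96 ± 0.15 on the log2 scale (limma adjusted p = 0.0312), and conv-dSVA_F&D was lower than conv-dSVA_D by -0.84 ± 0.14 (adjusted p = 0.0186). Tead4, a transcription factor of the Hippo pathway that starts 62144 bases away, was higher in the converted lines by 0.83 ± 0.14 (adjusted p = 0.0326). The differences of Rhno1 and Tead4 from the wild type lost their calls without any 1 of the conv-dSVA_F and conv-dSVA_D libraries (adjusted p up to 0.105 and 0.106), and that of Rhno1 from conv-dSVA_D without conv-dSVA_D replicate 1 (0.13) or 2 (0.149) or conv-dSVA_F&D replicate 2 (0.05 after rounding, not passing). The median difference of the 7 neighbours from the wild type was 0.37, 5 of 7 were positive, and the other 5 genes, Tulp3, Fkbp4, Itfg2, Tspan9 and Pzp, did not pass in this comparison. The median log2 deviation of chromosome 6 genes from their mean over the 7 libraries was -0.13 in the wild type, 0.26 and 0.22 for conv-dSVA_F, and -0.16 to -0.04 in the other converted libraries. With chromosome medians set equal, Foxm1 differed from the wild type by 1.06 (adjusted p = 0.0206), and Tead4 by 0.65, which did not pass (adjusted p = 0.0539). This setting takes off 1 median for the whole chromosome in each library, so it cannot remove a shift of only part of it. The part of such a shift in Foxm1 was not tested.

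**Figure D3:**
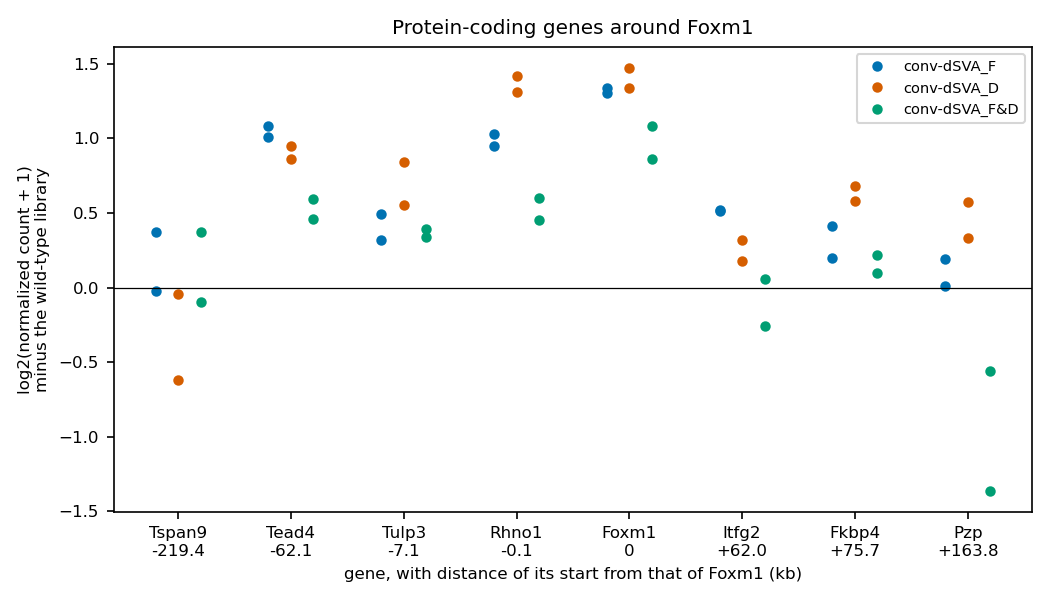
Log2 difference of each converted library from the wild-type library (vertical axis, log2 of the normalized count plus 1) for Foxm1 and the 7 tested protein-coding genes within 500 kb, ordered by the distance of their starts (kb). All 6 points are above 0 for Foxm1, Rhno1, Tead4, Tulp3 and Fkbp4.

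Cks2, a small adaptor subunit of cyclin-dependent kinases, was highest in the wild type at 3973 normalized counts. Levels were 2565 and 2621 for conv-dSVA_F, 2485 and 2896 for conv-dSVA_D, and 2197 and 2418 for conv-dSVA_F&D. Every converted library was below the wild type, and the libraries of conv-dSVA_F&D were the lowest of all. The converted mean was lower by a log2 difference of -0.66 ± 0.13 (limma adjusted p = 0.0486), in 6 of 6 libraries. The adjusted p was 0.0926 without conv-dSVA_F replicate 1, 0.108 without conv-dSVA_F replicate 2, 0.128 without conv-dSVA_D replicate 1 and 0.0855 without conv-dSVA_D replicate 2, at differences of -0.69 to -0.62. It was 0.0592 with chromosome medians set equal (difference -0.58). The sequence before its RefSeq start is shown because Cks2 is one of the genes called here and has CCAAT matches but no CHR match in its window. It covers the 150 bases at chr13:51645082-51645231 (GRCm38.p6, plus strand), with capitals at CCAAT, which begins 65 bases before the start, and at its reverse complement ATTGG, 22 bases before it. The window also holds ATTGG 15 bases and CCAAT 33 bases after the start, which are not printed.
Cks2: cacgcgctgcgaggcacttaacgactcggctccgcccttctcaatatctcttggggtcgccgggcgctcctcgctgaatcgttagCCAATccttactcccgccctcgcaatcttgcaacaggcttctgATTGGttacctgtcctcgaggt

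None of the 9 cyclin and CDK regulators was called between converted lines by limma or edgeR, and DESeq2 called Ccnb2 against conv-dSVA_D (-0.41, adjusted p = 0.043). At an unadjusted p under 0.05 by limma, 4 differed in conv-dSVA_F&D against conv-dSVA_D, 2 against conv-dSVA_F and 0 in conv-dSVA_F against conv-dSVA_D, beside 19.8%, 20.7% and 16.7% of tested genes. In conv-dSVA_F&D 7 of 9 lay below conv-dSVA_D, with a median of -0.22, and 7 of 9 lay below conv-dSVA_F, with a median of -0.18. Of all tested genes 50.3% and 51.1% lay below in these comparisons. Ccnb2, a B-type cyclin, stood at 2989 and 2778 normalized counts in conv-dSVA_F&D, 3680 and 4026 for conv-dSVA_D, 3243 and 3485 for conv-dSVA_F and 3397 for the wild type. Both conv-dSVA_F&D values were below the other 5, and the difference from conv-dSVA_D, -0.42 ± 0.11, did not pass (adjusted p = 0.0778 by limma). Ccna2, the A-type cyclin of S phase and G2, was also lowest in conv-dSVA_F&D, with 7538 and 7142 for conv-dSVA_F&D against 9145 and 9558 for conv-dSVA_D (-0.35 ± 0.10, adjusted p = 0.0981). Ccnb1, the main mitotic cyclin, ranged from 6354 to 8236 over the 7 libraries and Cdk1, its kinase, from 6943 to 9836. For both, the wild type was highest and conv-dSVA_F&D replicate 2 lowest, and neither passed in any comparison. Plk1, a kinase that promotes mitotic entry, ranged from 2071 in the wild type to 3091 for conv-dSVA_F&D replicate 1 and did not pass (0.36 ± 0.13 against the wild type, adjusted p = 0.184).

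The CDC25 phosphatases, which remove inhibitory phosphates from CDK1, had the widest spread between replicates. Cdc25b, lowest of the class per kilobase, stood at 572 and 420 normalized counts in conv-dSVA_D and at 377 and 295 for conv-dSVA_F&D. Cdc25c, on chromosome 18, had 613 normalized counts for conv-dSVA_F&D replicate 1 and 1140 for replicate 2, and 606 to 754 in the other 5 libraries. The high value came from the library in which the median log2 deviation of chromosome 18 genes was 0.47, against -0.11 to -0.00 in the others. Kif20a, on the same chromosome, was also highest there. Without conv-dSVA_F&D replicate 1, both were called against conv-dSVA_F, Cdc25c at 0.80 (limma adjusted p = 0.0344) and Kif20a at 0.51 (adjusted p = 0.0498). The part of the chromosome 18 level in both genes was not tested.

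**Figure D4:**
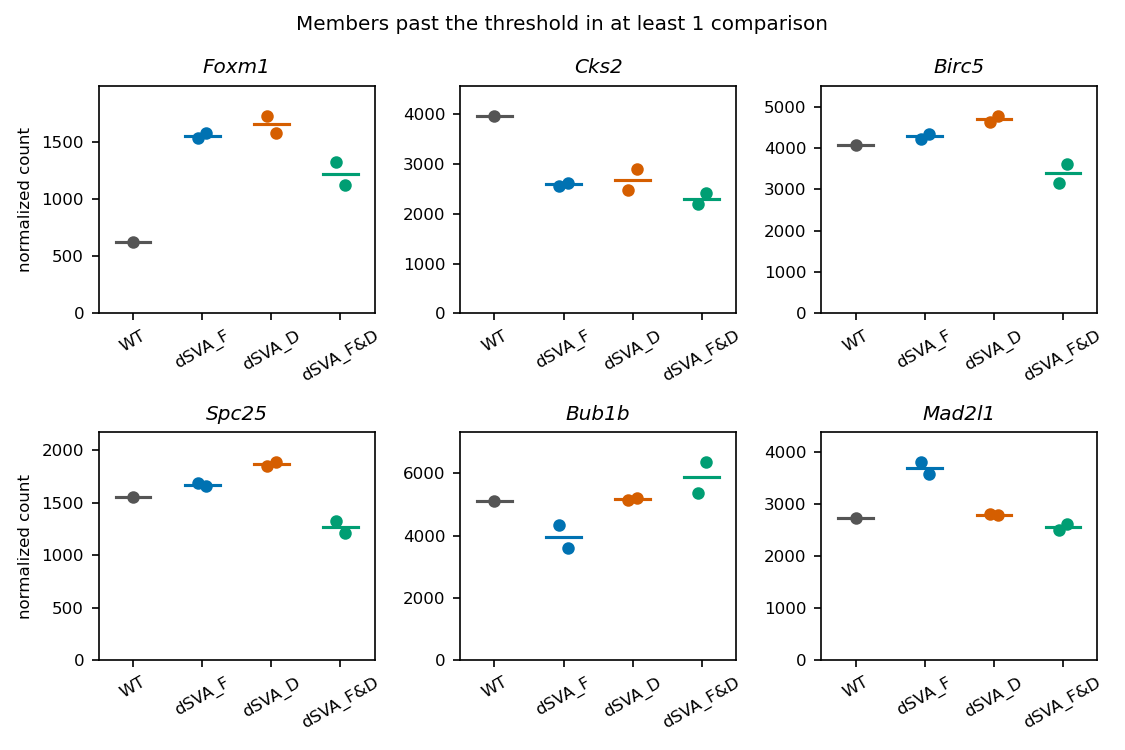
Normalized counts (vertical axes, from 0) of the 6 genes past the threshold in at least 1 comparison, by line. Points are libraries and bars are group means; the wild type (WT) has 1 library and each converted line 2.

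The 9 spindle checkpoint and anaphase genes held 2 of the calls, in opposite directions. Mad2l1 encodes MAD2, the protein that binds and holds CDC20 while the checkpoint is active. It was highest in conv-dSVA_F, at 3809 and 3576 normalized counts, with 2815 and 2785 for conv-dSVA_D, 2498 and 2618 for conv-dSVA_F&D and 2741 for the wild type. The conv-dSVA_F libraries did not overlap any other library. conv-dSVA_F&D was lower than conv-dSVA_F by -0.53 ± 0.11 on the log2 scale (limma adjusted p = 0.0306), and the F test among converted lines gave an adjusted p of 0.0399. Against conv-dSVA_D, conv-dSVA_F was higher by 0.40 ± 0.11 and did not pass (adjusted p = 0.108). Mad2l1 lies on chromosome 6, where the median log2 deviation was 0.26 and 0.22 in the conv-dSVA_F libraries and -0.15 and -0.16 in those of conv-dSVA_F&D. With chromosome medians set equal, the difference was -0.13 and did not pass (adjusted p = 0.545). Leaving out any 1 converted library ended the call, with adjusted p of 0.231 and 0.0919 without conv-dSVA_F replicates 1 and 2, 0.0692 and 0.0702 without those of conv-dSVA_D, and 0.0516 and 0.0505 without those of conv-dSVA_F&D. Gng12, the only tested protein-coding gene within 500 kb, differed by -0.07.

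Bub1b encodes BUBR1, which joins MAD2 in the complex that inhibits the APC/C. Levels were 4335 and 3588 normalized counts in conv-dSVA_F, 5144 and 5210 for conv-dSVA_D, 5375 and 6361 for conv-dSVA_F&D and 5110 for the wild type. The libraries of conv-dSVA_F were the lowest and those of conv-dSVA_F&D the highest, with no overlap. The difference between these lines was 0.57 ± 0.13 (limma adjusted p = 0.0443). The adjusted p was 0.149 without conv-dSVA_F replicate 1, 0.201 without conv-dSVA_F replicate 2, 0.129 without conv-dSVA_F&D replicate 2, and 0.0918 and 0.0926 without conv-dSVA_D replicates 1 and 2, at differences of 0.43 to 0.70. It was 0.0735 with chromosome medians set equal, at a difference of 0.56.

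The sequences before the RefSeq starts of Mad2l1 and Bub1b are shown because both are called genes of this class. Each covers 150 bases of GRCm38.p6 on the plus strand, at chr6:66535071-66535220 for Mad2l1 and chr2:118598061-118598210 for Bub1b. Capitals mark ATTGG, the reverse complement of CCAAT, 113 bases before the Bub1b start. Bub1b also has TTTGAA, in capitals, 41 bases after the start, within the 20 bases at chr2:118598241-118598260. The Mad2l1 window holds neither motif, which says only that these letters are not in it. GENCODE M21 places the start of Mad2l1 at chr6:66535390, past the end of this window. Any link of these letters to the levels of both genes was not tested.
Mad2l1: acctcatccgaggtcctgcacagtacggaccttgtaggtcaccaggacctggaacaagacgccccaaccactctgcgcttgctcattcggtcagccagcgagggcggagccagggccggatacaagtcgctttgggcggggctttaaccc
Bub1b: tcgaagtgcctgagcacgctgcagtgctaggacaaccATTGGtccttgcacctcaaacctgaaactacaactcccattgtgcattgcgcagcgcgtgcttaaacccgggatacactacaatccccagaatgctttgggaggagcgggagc
Bub1b after the start: agacgttaaaTTTGAAactt

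The other 7 checkpoint and anaphase genes did not pass in any comparison by limma or edgeR, and DESeq2 called Pttg1 against the wild type (-0.51, adjusted p = 0.0488). Bub1, a checkpoint kinase, ranged from 4151 to 4773 normalized counts and Cdc20 from 7756 to 8384. Ttk, the kinase MPS1 that starts the checkpoint signal, was the lowest of the class per kilobase of exon (309) and ranged from 1378 to 1656 normalized counts. Bub3, the partner of BUB1 and BUBR1, stood at 4809 in the wild type and 3435 to 3826 in the converted libraries, a difference of -0.41 ± 0.12 (limma adjusted p = 0.108). Pttg1, which encodes securin, was highest in the wild type (3738, against 2159 to 3118) and Espl1, which encodes separase, was lowest there (2908, against 3400 to 4410). Neither difference passed, with -0.51 ± 0.15 for Pttg1 (adjusted p = 0.117) and 0.40 ± 0.14 for Espl1 (adjusted p = 0.155). Ube2c, the ubiquitin-conjugating enzyme of the APC/C, stood at 5656 and 5416 for conv-dSVA_F and at 4139 to 4972 in the other 5 libraries.

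Spc25 was the called gene among the 7 kinetochore and centromere genes. It encodes a subunit of the NDC80 complex, which binds spindle microtubules. Its levels were 1323 and 1212 normalized counts in conv-dSVA_F&D, 1854 and 1888 for conv-dSVA_D, 1689 and 1659 for conv-dSVA_F and 1553 for the wild type. Both conv-dSVA_F&D libraries were below the other 5. The difference from conv-dSVA_D was -0.56 ± 0.12 (limma adjusted p = 0.0388), that from conv-dSVA_F was -0.40 ± 0.12 (adjusted p = 0.0917), and the F test gave an adjusted p of 0.0462. For conv-dSVA_D the adjusted p was 0.07 and 0.0734 without conv-dSVA_F replicates 1 and 2, 0.204 and 0.207 without conv-dSVA_D replicates 1 and 2, and 0.0918 without conv-dSVA_F&D replicate 2, at differences of -0.58 to -0.50. The bases before its start are shown because Spc25 is the called kinetochore gene and its window holds both motifs. The 150 bases lie at chr2:69206214-69206363 (GRCm38.p6, minus strand), with capitals at CCAAT, 55 and 23 bases before the RefSeq start. TTTGAA begins 25 bases after the start, in capitals within the 20 bases at chr2:69206177-69206196.
Spc25: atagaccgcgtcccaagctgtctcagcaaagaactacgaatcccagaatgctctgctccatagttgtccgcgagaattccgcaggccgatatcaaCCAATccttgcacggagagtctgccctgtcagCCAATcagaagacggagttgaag
Spc25 after the start: tggagagTTTGAAattgaaa

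Ndc80 and Nuf2, further subunits of the NDC80 complex, did not pass in any comparison. Ndc80 ranged from 1052 to 1355 normalized counts, with 1206 and 1236 for conv-dSVA_F&D against 1052 and 1319 for conv-dSVA_D (0.05 on the log2 scale). Nuf2, the lowest of the class per kilobase of exon (154), ranged from 888 to 1092 and differed by 0.04 between these lines. Cenpf, a large kinetochore protein that builds up in G2, stood at 7249 and 6585 for conv-dSVA_D, 5490 and 4669 for conv-dSVA_F&D and 4197 for the wild type. Its difference of -0.45 ± 0.12 between these converted lines and that of 0.48 ± 0.13 of the converted mean from the wild type did not pass (limma adjusted p = 0.0784 and 0.0958). DESeq2 called both (adjusted p = 0.0322 and 0.0318), and by limma the first was called without conv-dSVA_F&D replicate 1 (-0.57, adjusted p = 0.0418) and the second without conv-dSVA_F&D replicate 2 (0.52, adjusted p = 0.0446). Cenpa, the centromeric histone H3 variant, ranged from 2694 to 3559. Cenpe, a kinetochore kinesin, ranged from 2285 to 2738, and Kif2c, a microtubule-depolymerizing kinesin and the highest of the class per kilobase (827), from 3042 to 4187. In conv-dSVA_F all 7 kinetochore genes had negative differences from conv-dSVA_D, from -0.26 to -0.04, as did 31 of the 38 genes and 51% of tested genes. None of the 7 passed by limma, edgeR or DESeq2 (0 at an unadjusted p under 0.05 by limma, beside 16.7% of tested genes).

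Of the 4 genes of the Aurora kinases and the chromosomal passenger complex, which corrects wrong attachments and guides cytokinesis, Birc5 was called. It encodes survivin, the subunit that brings the complex to centromeres. Values were 3165 and 3605 normalized counts in conv-dSVA_F&D, 4638 and 4782 for conv-dSVA_D, 4221 and 4336 for conv-dSVA_F and 4076 for the wild type. The conv-dSVA_F&D libraries were below all others. The difference from conv-dSVA_D was -0.48 ± 0.11 (limma adjusted p = 0.0497), close to the threshold, and that from conv-dSVA_F was -0.34 ± 0.11 (adjusted p = 0.122). The call ended at an added count of 0.5 in place of 1 (adjusted p = 0.0518), with TMM scaling (0.0514), with chromosome medians set equal (0.055) and with edgeR (0.06). It also ended without conv-dSVA_F replicates 1 and 2 (0.0849 and 0.0876), conv-dSVA_D replicates 1 and 2 (0.236 and 0.247) and conv-dSVA_F&D replicate 1 (0.098, at a difference of -0.39). Its sequence is shown as that of a called gene whose window holds neither motif, at chr11:117849087-117849236 (GRCm38.p6, plus strand), 150 bases before the RefSeq start.
Birc5: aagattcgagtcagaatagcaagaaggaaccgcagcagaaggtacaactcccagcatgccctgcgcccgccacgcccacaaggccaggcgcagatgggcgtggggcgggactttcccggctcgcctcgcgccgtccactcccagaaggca

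Survivin's partners in the complex, and Aurora A, were not called by limma, edgeR or DESeq2. Aurkb, the kinase of the complex, stood at 2076 and 2318 normalized counts there, against 2264 and 2234 for conv-dSVA_D and 1946 for the wild type, with overlap between the lines. Incenp, its scaffold and the lowest of the class per kilobase (539), stood at 2797 and 2248 against 2390 and 2398. Aurka, the kinase of spindle poles and the highest per kilobase (1791), ranged from 4087 to 4911, with the highest values, 4911 and 4848, in conv-dSVA_F&D. At an unadjusted p under 0.05 by limma, 1 of the 4 genes of this class differed against conv-dSVA_F and none in conv-dSVA_F against conv-dSVA_D or against the wild type, beside 20.7%, 16.7% and 18.7% of tested genes.

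No gene of the 7 spindle motor, spindle assembly and cytokinesis genes passed, at counts of 1, 2, 1 and 0 genes under an unadjusted p of 0.05 with limma in the comparisons with conv-dSVA_D, with conv-dSVA_F, of conv-dSVA_F with conv-dSVA_D and with the wild type. The same threshold was met by 19.8%, 20.7%, 16.7% and 18.7% of tested genes. edgeR called none of them either, while DESeq2 called Kif23 against conv-dSVA_F and Nusap1 between conv-dSVA_F and conv-dSVA_D. Kif23, a subunit of the centralspindlin complex of the midzone, had the smallest p of the class. It stood at 3746 and 3756 normalized counts in conv-dSVA_F&D, above the 2735 to 3184 of the other 5 libraries, and differed from conv-dSVA_F by 0.42 ± 0.11 (adjusted p = 0.0618). Nusap1, a microtubule-binding protein, stood at 2227 and 2044 for conv-dSVA_F, below all other libraries (2580 to 3263). Its difference from conv-dSVA_D was -0.47 ± 0.13 (limma adjusted p = 0.112).

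All 7 of these spindle genes lay above conv-dSVA_F in conv-dSVA_F&D, by 0.03 to 0.42 on the log2 scale, and all 7 lay below conv-dSVA_D in conv-dSVA_F, by -0.47 to -0.06. Both comparisons use the conv-dSVA_F libraries. Of the 38 genes, 15 had negative differences in the first and 31 in the second, beside 51.1% and 51% of tested genes. Kif20a, a kinesin of cytokinesis on chromosome 18 and the highest of the class per kilobase (2396), stood at 8115 normalized counts in the wild type, 8862 and 9827 for conv-dSVA_F, 11873 and 11797 for conv-dSVA_D, and 9000 and 13280 for conv-dSVA_F&D. Its highest value was in conv-dSVA_F&D replicate 2, the library with the raised chromosome 18 median. Kif11, the motor that separates the spindle poles, held between 5477 and 6072, and Hmmr, a spindle protein, between 3303 and 3699. Tpx2, the activator of Aurora A, ranged from 5153 to 6056 and Prc1, which bundles midzone microtubules, from 4624 to 5689.

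Neither of the 2 genes of mitotic chromosome structure passed. Mki67, which encodes the proliferation marker Ki-67 that coats mitotic chromosomes, stood at 4030 normalized counts in the wild type, 5771 and 5819 for conv-dSVA_F, 6198 and 5332 for conv-dSVA_D, and 5083 and 4646 for conv-dSVA_F&D. All 6 converted libraries were above the wild type, by 0.44 ± 0.12 on the log2 scale for their mean (limma adjusted p = 0.108). Top2a, the topoisomerase that untangles sister chromatids, ranged from 21842 to 28397 and differed from the wild type by -0.01 ± 0.14.

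Other genes of the cell cycle, taken from 8 lists, were described in the same fits. Of all tested genes limma called 1.96% higher and 1.21% lower in conv-dSVA_F&D against conv-dSVA_D. It called 1.71% and 2.21% against conv-dSVA_F, 1.08% and 0.262% in conv-dSVA_F against conv-dSVA_D, and 0.623% and 0.525% against the wild type. Among 36 other kinetochore genes, Trip13, the ATPase that disassembles MAD2 complexes, was lower in the conv-dSVA_F&D line than in the conv-dSVA_D line by -0.49 ± 0.11 (limma adjusted p = 0.0483), and Cenph was lower than in conv-dSVA_F by -0.66 ± 0.14 (adjusted p = 0.0374). The other 34 were called in neither of these comparisons by limma, and DESeq2 called Cenpu against conv-dSVA_F (-0.65, adjusted p = 0.0293). Of 17 APC/C genes, Ube2s, which extends ubiquitin chains, was higher in the conv-dSVA_F&D line than in the conv-dSVA_D line (0.51 ± 0.11, adjusted p = 0.0416). Among 8 condensin subunits, Ncapg2 was lower in that comparison (-0.53 ± 0.12, adjusted p = 0.0495) and Ncapd2, on chromosome 6, was higher in the converted lines than in the wild type (0.76 ± 0.13, adjusted p = 0.0312). Of 12 other mitotic kinases and regulators of cyclin B and CDK1, 2 were lower in the conv-dSVA_F&D line than in the conv-dSVA_D line. They were Cdca3, on chromosome 6 (-0.65 ± 0.10, adjusted p = 0.0161), and Mastl, the Greatwall kinase (-0.56 ± 0.12, adjusted p = 0.0399). With chromosome medians set equal, Ncapd2 differed by 0.59 (adjusted p = 0.0558) and Cenph by -0.67 (0.0514), and neither passed. Trip13 and Ncapg2 did not pass with edgeR (0.0541 and 0.0573), with TMM scaling (0.0502 and 0.0529) or with an added count of 0.5 (0.0503 and 0.0516). Each of these calls also ended when some single libraries were left out. Trip13 and Ube2s lost theirs without any 1 of the 6 converted libraries (adjusted p up to 0.246 and 0.236), and Cenph (up to 0.278) without any but conv-dSVA_F&D replicate 1. Likewise Ncapg2 (up to 0.253) and Mastl (up to 0.222) lost theirs without any but conv-dSVA_F&D replicate 1. Cdca3 lost its call without either conv-dSVA_D library (0.128 and 0.132), and Ncapd2 without conv-dSVA_F replicate 2 (0.0778) or either conv-dSVA_D library (0.107 and 0.0803).

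Of 26 other spindle and cytokinesis genes, Ckap2 on chromosome 8 was lower in the conv-dSVA_F&D line than in the conv-dSVA_F line (-0.79 ± 0.15, limma adjusted p = 0.0248). The 10 genes of the DREAM and MMB complexes, which repress and activate promoters of G2/M genes, included the called genes Tfdp1 and E2f4, both on chromosome 8. Tfdp1 was lower in the conv-dSVA_F&D line than in the conv-dSVA_F line (-0.84 ± 0.11, adjusted p = 0.0114) and higher in conv-dSVA_F than in conv-dSVA_D (0.74 ± 0.11, adjusted p = 0.0193). E2f4, at 1007 normalized counts in the wild type and 1818 to 2578 in the converted libraries, was higher in the converted mean by 1.07 ± 0.13 (adjusted p = 0.0183). The median log2 deviation of chromosome 8 genes was 0.44 and 0.25 in the conv-dSVA_F libraries, -0.21 in the wild type and -0.19 to 0.04 in the other 4, and with chromosome medians set equal 3 of these 4 differences shrank and did not pass. They were then -0.25 for Ckap2 (adjusted p = 0.346), and -0.31 (0.209) and 0.34 (0.194) for Tfdp1, while E2f4 kept its call. Leaving out 1 library ended the call of Ckap2 in every case but conv-dSVA_F replicate 2 and conv-dSVA_F&D replicate 1 (adjusted p up to 0.21). It ended those of Tfdp1 without conv-dSVA_F replicate 1 (0.119 and 0.231), and the second also without conv-dSVA_F replicate 2 (0.0731) or conv-dSVA_D replicates 1 and 2 (0.176 and 0.103). E2f4 lost its call without conv-dSVA_F replicate 2 (0.0534) or conv-dSVA_D replicates 1 and 2 (0.0731 and 0.0501).

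Of 32 G1/S and replication genes, Slbp, the histone mRNA-binding protein, was lower in conv-dSVA_F&D than in both other converted lines (-0.69 ± 0.13, limma adjusted p = 0.0255, against conv-dSVA_D and -0.54 ± 0.13, adjusted p = 0.0481, against conv-dSVA_F). Gins2, on chromosome 8, was lower than in conv-dSVA_F (-0.71 ± 0.13, adjusted p = 0.0247), and Tyms, thymidylate synthase, was lower in the converted lines than in the wild type (-0.72 ± 0.12, adjusted p = 0.0318). With chromosome medians set equal, Gins2 differed by -0.18 (adjusted p = 0.542). The call of Slbp against conv-dSVA_F also ended in that setting (0.066), with edgeR (0.0602), with TMM scaling (0.0532) and with an added count of 0.5 (0.051). Slbp lost its call against conv-dSVA_D without conv-dSVA_F replicate 2 (0.0524), conv-dSVA_D replicates 1 and 2 (0.12 and 0.191) or conv-dSVA_F&D replicate 2 (0.0719), and that against conv-dSVA_F without any library but conv-dSVA_F&D replicate 1 (up to 0.242). Gins2 lost its call without any of the conv-dSVA_F and conv-dSVA_D libraries (up to 0.202), and so did Tyms (up to 0.11). None of 10 CDK inhibitors and genes of cell cycle exit was called by limma or edgeR, and DESeq2 called Cdkn1b against conv-dSVA_D, Btg2, Ccng2 and Cdkn1b against conv-dSVA_F, and Btg2 against the wild type. By limma 4, 4, 1 and 1 of them had an unadjusted p under 0.05 in the 4 comparisons, beside 19.8%, 20.7%, 16.7% and 18.7% of tested genes. In conv-dSVA_F&D against conv-dSVA_D the list medians were -0.22 for CDK inhibitors, -0.20 for condensin, -0.15 for other kinetochore genes and for other spindle genes, and -0.14 for mitotic kinases. They were -0.08 for DREAM and MMB genes, -0.06 for G1/S genes and -0.04 for the APC/C, beside -0.00 over all tested genes. The CDK inhibitors were split, 5 positive and 5 negative, from -0.74 to 1.03. In each of the other comparisons the list medians lay on both sides of 0, with only the CDK inhibitors (0.08) above it in conv-dSVA_F against conv-dSVA_D.

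**Figure D5:**
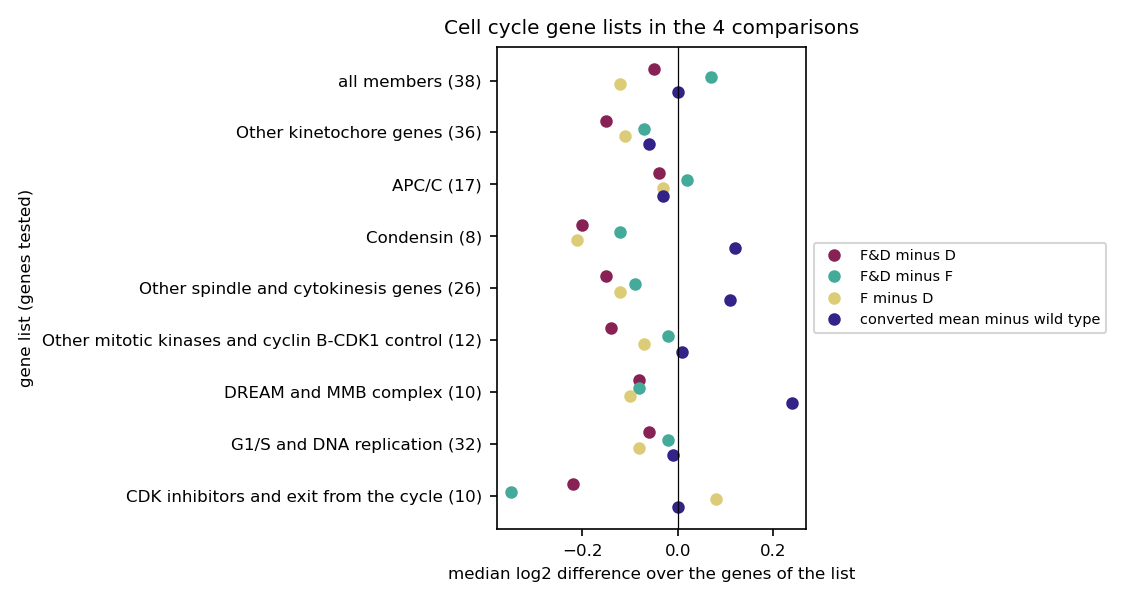
Median log2 difference (horizontal axis) of the 38 genes and of the 8 other cell cycle lists (vertical axis, with the number of genes tested) in the 4 comparisons (colours). In conv-dSVA_F&D against conv-dSVA_D all 9 medians lie at or below -0.04, and the 38 genes are at -0.05. In each of the other comparisons the medians lie on both sides of 0.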

How the data were processed

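The deposited signal is a table of normalized counts, which the authors made by dividing gene counts by 1 size factor per library. Per the submitters' processing notes, the tools were STAR 2.7.3, featureCounts 1.6.3, Trimmomatic 0.36, DESeq2, Picard 2.18.20 and deepTools 3.1.0, and the build was mm10. Strand setting and gene annotation are not given in the sources used here. Libraries were made from total RNA with a stranded kit, per the labels' protocols. Values in each column were whole multiples of 1 read: 100% of positive values came within 0.1 read of a whole number.

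Members and gene lists were chosen with earlier results of these data known. Groups came from the sample titles. The test was limma 3.58.1 (R 4.3.3) with a variance trend on log2(normalized count + 1), over 15240 genes with a mean of at least 10, with 1 mean for each of 4 groups (3 residual and 6.8 prior degrees of freedom). Two-sided p-values were adjusted over all tested genes (Benjamini-Hochberg, threshold 0.05). Differences are first group minus the other, ± standard error, and the added 1 understates those of low genes. The script was tested on simulated data. Run on the recovered reads, edgeR 4.0.16 (quasi-likelihood) called 463, 553, 225 and 305 genes in the comparisons in the order reported, limma 482, 597, 205 and 175, and DESeq2 1.42.0 was a further alternative.

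By rule, the text names members past the threshold, the smallest p of a class without one, the highest and lowest per kilobase of each class, members on chromosomes 6, 8 and 18, and up to 4 called genes per other list. Other members are named to account for all 38. Positions, exon lengths and neighbours came from GENCODE M21 (GRCm38), matched by symbol for 93% of genes, and promoters from RefSeq (GRCm38.p6). Precision per library follows from the read totals given in the report.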

Additional observations from a re-analysis of the deposited data

How the results depend on the processing

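Across 16 alternatives no called gene changed direction, but most calls lay close to the threshold, and 6 of those alternatives each left out 1 converted library. Of the 38 genes, 2 were called in conv-dSVA_F&D against conv-dSVA_D. That count became 1 with TMM scaling, an added count of 0.5, chromosome medians set equal or edgeR, 0 without the low-value filter, without the variance trend or with only the libraries compared, and 4 with DESeq2 (Birc5, Ccnb2, Cenpf and Spc25). Against conv-dSVA_F, 2 became 0 without the filter, without the trend, with only the libraries compared or with chromosome medians set equal. In conv-dSVA_F against conv-dSVA_D, 0 became 1 with DESeq2. Against the wild type, 2 became 1 with an added 0.5, without the filter or with chromosome medians set equal, 0 without the trend and 4 with DESeq2 (Cenpf, Cks2, Foxm1 and Pttg1). For any difference among converted lines, 2 became 0 without the filter, without the trend or with chromosome medians set equal, 1 with edgeR and 5 with DESeq2. Leaving out 1 library at a time gave 0 to 2, 0 to 3, 0 to 0, 0 to 3 and 0 to 4 calls in these 5 comparisons. The median difference of the 38 genes moved between -0.11 and -0.01 against conv-dSVA_D, 0.03 and 0.08 against conv-dSVA_F, and -0.17 and -0.11 in conv-dSVA_F against conv-dSVA_D when 1 library was left out. It was 0.01 against conv-dSVA_F with chromosome medians set equal. Foxm1 kept its call in 12 of 15 alternatives, Spc25 in 8, Bub1b in 7, Mad2l1 in 6 and Birc5 in 4 of 16, and Cks2 in 7 of 15. The causes of these losses were not tested. Over all genes, 482, 597, 205, 175 and 850 calls in the 5 comparisons became 0, 0, 0, 906 and 0 without the filter, 0, 0, 1, 1 and 0 without the trend, and 1031, 1206, 729, 847 and 1888 with DESeq2. With only the libraries compared the first 3 became 246, 200 and 504. With chromosome medians set equal, 597 became 176 (125 higher, 51 lower, against 260 and 337) and 850 became 547. Against the wild type, 175 became 275 with an added count of 5 and 305 with edgeR. Leaving out 1 library gave 0 to 769, 0 to 881, 0 to 488, 2 to 599 and 9 to 1315. No paired analysis was possible because the labels give no replicate numbers, and the numbers used here only name samples. Of 15 calls in the other cell cycle lists, 15 were lost without the variance trend, 13 without the low-value filter and 7 with chromosome medians set equal, and with only the libraries compared 8 of 12 were lost. The precision is limited by 2 libraries per converted line and 1 of the wild type.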
